A study of Homo sapiens with 9 samples.

Results

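Histone variants are histone proteins encoded by single genes outside the large histone gene clusters, and they replace the common histones in part of the chromatin. The 6 genes followed were H2AX, H2AZ1, H2AZ2, H1-10, H3-3B and MACROH2A1. H2AX was chosen by its measured fall with the MTAP inhibitor on these arrays, and the others were taken because they encode further histone variants. Of the 6 genes, 5 had probe sets that carried their symbol alone and held values, 15 probe sets among 17474 with values, and these 5 genes were among the 7011 genes tested. All 8 probe sets annotated to H3-3B also carried H3-3A and a further gene, so no value could be given for H3-3B alone.

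RNA came from HT1080, a cell line grown from a human fibrosarcoma, on 9 Affymetrix arrays. The groups were MTAP-positive cells that had received 10 µM of the inhibitor MT-DADMe-ImmA for 48 hours, MTAP-positive cells without treatment, and MTAP-negative cells without treatment, with 3 arrays each, which the design text calls biological replicates. MTAP (methylthioadenosine phosphorylase) starts the salvage of methionine and adenine from methylthioadenosine, and MT-DADMe-ImmA blocks the enzyme. The labels do not say how the MTAP-positive cells were derived, from how many clones, or whether untreated cells received a vehicle. MTAP read 11.20 ± 0.10 with inhibitor, 11.58 ± 0.19 in MTAP-positive cells and 4.56 ± 0.41 in cells without MTAP (log2 ± SD over 3 arrays a group), the last below the 6.64 that every deposited probe set reached on at least 3 arrays. Of 10 mesenchymal markers 8 had values, among them VIM, CDH2, FN1 and SPARC, and 0 of 8 epithelial and 0 of 6 blood cell markers did. For the ACTB control, the 5' level minus the 3' level, a sign of RNA quality, ran from -2.09 to -0.88 (log2) with inhibitor, from -1.92 to -1.03 in MTAP-positive cells and from -3.52 to -1.81 in MTAP-negative cells, where replicate 3 was lowest. Levels are RMA values on the log2 scale, and levels of different probe sets are not compared.

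DNA is wound around a core of H2A, H2B, H3 and H4, and most of these proteins are made during S phase from clustered genes whose mRNAs end in a stem-loop and not in a poly(A) tail. Variants differ from them in when they are made and where they are placed. H2AX carries a tail whose serine is phosphorylated by ATM, ATR and DNA-PK around DNA breaks, and its mRNA exists both with a stem-loop and with a poly(A) tail. H2AZ1 and H2AZ2 encode closely related forms of H2A.Z, which the SRCAP and EP400 complexes place near gene starts. H1-10 is a linker histone, MACROH2A1 encodes an H2A with a large additional domain that is common in silent chromatin, and H3-3B and H3-3A encode the same replication-independent H3. In bulk RNA, fewer cells that express a gene and less of its RNA per cell cannot be told apart.

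The stretches before the gene starts are shown for the members whose levels differ most in their course over the groups. Each is the 250 bases before the start in RefSeq (GRCh38.p14), written 5′ to 3′ along the gene, with capitals marking CCAAT on either strand (ATTGG on the other) and TATAAA.
H2AX (chr11:119095466-119095715, minus strand): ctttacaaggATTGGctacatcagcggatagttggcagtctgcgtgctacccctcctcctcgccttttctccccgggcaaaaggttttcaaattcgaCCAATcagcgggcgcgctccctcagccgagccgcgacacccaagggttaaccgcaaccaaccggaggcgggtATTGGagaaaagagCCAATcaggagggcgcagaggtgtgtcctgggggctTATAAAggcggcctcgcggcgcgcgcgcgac
H2AZ1 (chr4:99950276-99950525, minus strand): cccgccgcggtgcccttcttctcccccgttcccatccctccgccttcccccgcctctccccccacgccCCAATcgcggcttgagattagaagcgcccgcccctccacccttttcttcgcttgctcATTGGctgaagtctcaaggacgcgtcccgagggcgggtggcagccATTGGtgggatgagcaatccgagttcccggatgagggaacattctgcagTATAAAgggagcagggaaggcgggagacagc
H2AZ2 (chr7:44848088-44848337, minus strand): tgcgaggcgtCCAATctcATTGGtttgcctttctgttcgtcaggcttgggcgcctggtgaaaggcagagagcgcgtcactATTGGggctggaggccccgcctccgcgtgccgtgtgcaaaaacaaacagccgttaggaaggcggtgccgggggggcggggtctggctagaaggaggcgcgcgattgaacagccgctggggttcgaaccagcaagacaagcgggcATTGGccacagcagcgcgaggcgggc
H1-10 (chr3:129316287-129316536, minus strand): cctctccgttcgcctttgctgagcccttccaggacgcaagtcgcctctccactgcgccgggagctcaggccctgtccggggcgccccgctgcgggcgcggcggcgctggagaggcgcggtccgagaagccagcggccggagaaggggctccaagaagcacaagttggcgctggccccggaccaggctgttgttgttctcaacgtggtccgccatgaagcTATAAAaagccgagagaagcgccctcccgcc
CCAAT occurred 4 times in H2AX, 3 in H2AZ1, 4 in H2AZ2 and 0 times in H1-10, where 32% of 35116 RefSeq promoters of this length held at least 1 and 9.53% at least 2. Among 8746 promoters of the genes tested these shares were 33.4% and 11.4%. The H3-3B window, not shown, held 4, and the 2 windows of MACROH2A1 held 0 and 2. TATAAA began 31 bases before the start in H2AX, H2AZ1 and H1-10 and 29 bases before it in H3-3B, and was in neither the H2AZ2 window nor those of MACROH2A1. On either strand 10.7% of all promoters held it, and 5.71% of those of tested genes. The E2F letters TTTCCCGC, TTTGGCGC, TTTCGCGC and TTTGCCGC, searched on both strands, were in none of these windows, in 2.79% of all promoters and in 4.49% of those of tested genes. These matches are descriptions of the letters only.

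H2AX was lower in inhibitor-treated cells than in both other groups. Its brightest probe set, 205436_s_at, read 10.51, 10.20 and 10.28 in inhibitor-treated cells, 11.81, 11.46 and 11.53 in MTAP-positive cells, and 11.74, 11.84 and 11.26 in MTAP-negative cells (log2, replicates 1 to 3). Every inhibitor-treated array lay below every other array, while the MTAP-positive and MTAP-negative arrays overlapped. The H2AX level differed by -1.27 ± 0.16 (log2 ± SE) in inhibitor-treated relative to MTAP-positive cells, a 2.41-fold lower level. Relative to MTAP-negative cells, it differed by -1.29 ± 0.16 in inhibitor-treated cells and by -0.01 ± 0.16 in MTAP-positive cells. These differences chose the gene or share arrays with the one that did, so they are given without a test.

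Both other H2AX probe sets with values were also lower with inhibitor than in MTAP-positive cells on every array. The H2AX probe set 213344_s_at read 7.01, 6.63 and 6.78 with inhibitor, 7.79, 8.08 and 7.35 in MTAP-positive cells, and 7.50, 8.31 and 7.36 in MTAP-negative cells. The H2AX probe set 212525_s_at read 7.69, 7.70 and 7.61 with inhibitor, 8.98, 8.34 and 8.38 in MTAP-positive cells, and 8.89, 8.74 and 6.02 in MTAP-negative cells. The last of these values came from MTAP-negative replicate 3, the array with the lowest ACTB 5' minus 3' difference. The inhibitor-treated and MTAP-negative arrays overlapped for 212525_s_at and lay apart for 213344_s_at. Relative to MTAP-positive cells, 213344_s_at differed by -0.93 ± 0.26 and 212525_s_at by -0.90 ± 0.62 (log2 ± SE). These SE pool the spread of all 3 groups. The SD of 212525_s_at was 0.05 with inhibitor, 0.36 in MTAP-positive cells and 1.61 in MTAP-negative cells. With the mean of the 3 probe sets as the H2AX level, the difference to MTAP-positive cells was -1.04 and that to MTAP-negative cells -0.81.

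**Figure D1:**
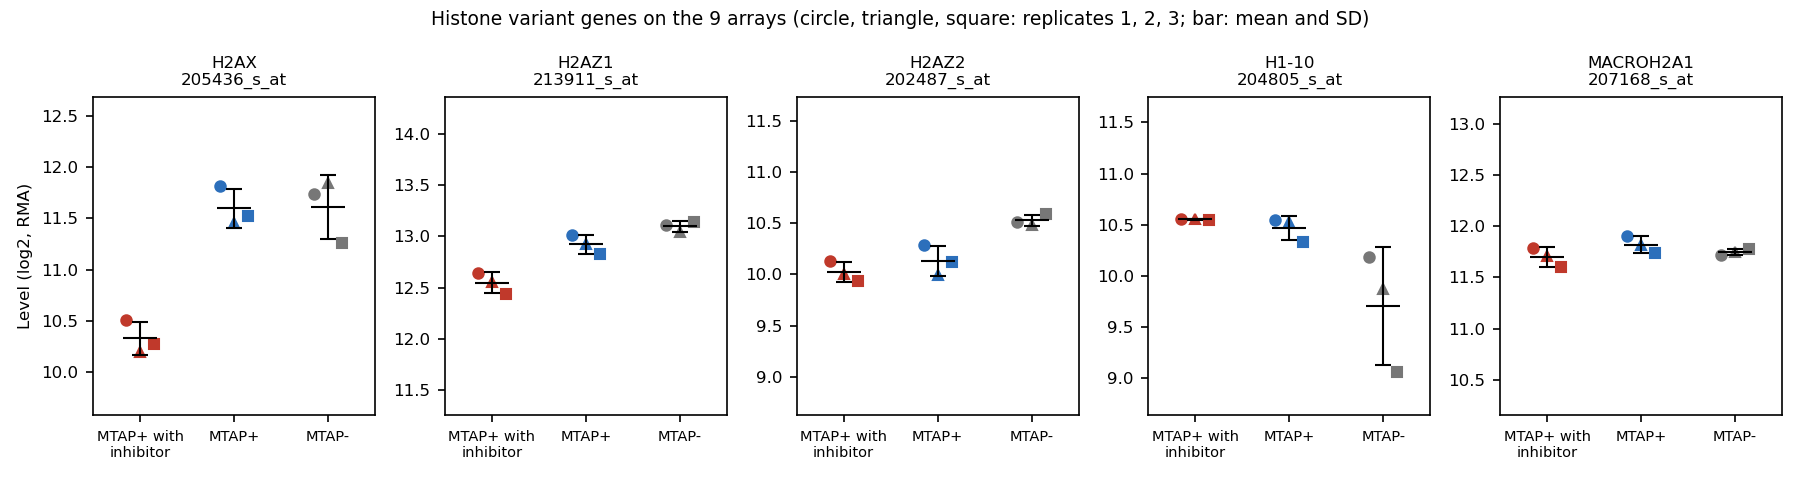
Levels (log2, RMA) of the brightest probe set of 5 histone variant genes on each of the 9 arrays, with group means and SD as bars, on axes of equal span. H2AX stands about 1.27 lower with inhibitor than in MTAP-positive cells, H2AZ1 steps down in smaller amounts, and H1-10 is lowest on MTAP-negative replicate 3.

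H2AZ1, one of the genes of H2A.Z, was lower with inhibitor by a smaller amount. It read 12.65, 12.56 and 12.44 with inhibitor, 13.02, 12.93 and 12.83 in MTAP-positive cells, and 13.12, 13.04 and 13.15 in MTAP-negative cells (log2, probe set 213911_s_at). The 3 groups lay apart on every array, with inhibitor-treated cells lowest. Of 7010 genes without MTAP, 36.4% had inhibitor-treated and MTAP-positive arrays apart in this way, 35.2% had MTAP-positive and MTAP-negative arrays apart, and 54.6% inhibitor-treated and MTAP-negative arrays. H2AZ1 fell by 0.38 ± 0.10 on the log2 scale with inhibitor (1.30-fold; limma, Benjamini-Hochberg adjusted p = 0.0279) and was lower by 0.55 in inhibitor-treated than in MTAP-negative cells (-0.55 ± 0.10, adjusted p = 0.00168). MTAP-positive relative to MTAP-negative cells had a difference of -0.18 ± 0.10 (adjusted p = 0.227). The call against MTAP-positive cells did not hold in fits that left out inhibitor-treated replicate 3 or 2 (adjusted p = 0.129 and 0.0760) or replicate 1 of the MTAP-positive cells (0.0838), and when the MTAP-negative arrays were left out of the fit (0.0517).

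The other H2AZ1 probe set, 200853_at, read 12.06, 11.95 and 11.80 with inhibitor, 12.46, 12.35 and 12.24 in MTAP-positive cells, and 12.57, 12.31 and 12.57 in MTAP-negative cells. In a fit over all probe sets it differed by -0.41 ± 0.12 with inhibitor (adjusted p = 0.0557, and 0.0378 with the replicate block), and inhibitor-treated cells differed from MTAP-negative cells by -0.55 ± 0.12 (adjusted p = 0.00748). The difference with inhibitor passed in 5 of 15 alternatives, the block among them, with adjusted p from 0.0281 to 0.208 over all of them. That fit called 10.3%, 14.8% and 30.7% of 17466 probe sets for inhibitor-treated against MTAP-positive cells, MTAP-positive against MTAP-negative cells, and inhibitor-treated against MTAP-negative cells, in this order.

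The 4 probe sets of H2AZ2, the other H2A.Z gene, followed 2 courses. The brightest, 202487_s_at, read 10.13, 10.00 and 9.93 with inhibitor, 10.29, 9.99 and 10.12 in MTAP-positive cells, and 10.51, 10.48 and 10.59 in MTAP-negative cells. The H2AZ2 probe set 227085_at read 8.88, 8.60 and 8.48 with inhibitor, 8.99, 8.56 and 8.63 in MTAP-positive cells, and 9.08, 9.19 and 9.11 in MTAP-negative cells. In both, the inhibitor-treated and MTAP-positive arrays overlapped and the MTAP-negative arrays lay above them. The H2AZ2 probe set 212205_at read 8.25, 8.13 and 8.02 with inhibitor, against 9.88, 9.65 and 9.46 in MTAP-positive cells and 9.41, 9.12 and 8.91 in MTAP-negative cells. The H2AZ2 probe set 212206_s_at read 7.43, 7.69 and 7.23 with inhibitor, against 9.0, 8.94 and 8.63 in MTAP-positive cells and 8.49, 8.41 and 8.43 in MTAP-negative cells. In these probe sets the groups lay apart on every array, lowest with inhibitor and highest in MTAP-positive cells without it.

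In the fit over all probe sets, which was added after the data were seen, 212205_at of H2AZ2 fell by 1.53 ± 0.15 on the log2 scale with inhibitor (2.88-fold, adjusted p = 0.00197) and 212206_s_at fell by 1.41 ± 0.14 (2.66-fold, adjusted p = 0.00195). For the same comparison 202487_s_at differed by -0.11 ± 0.11 (adjusted p = 0.549) and 227085_at by -0.08 ± 0.14 (adjusted p = 0.782). The calls of 212205_at and 212206_s_at stayed past the threshold in all 15 alternatives run on that fit, with adjusted p from 8.32e-04 to 0.0162 and from 8.34e-04 to 0.0155. Between MTAP-positive and MTAP-negative cells, 212205_at differed by 0.51 ± 0.15 (adjusted p = 0.0539; 0.00958 with the replicate block) and 212206_s_at by 0.42 ± 0.14 (0.0772; 0.0410 with the block). In that comparison 202487_s_at of H2AZ2 had the opposite sign, at -0.39 ± 0.11 (adjusted p = 0.0400), as did 227085_at at -0.40 ± 0.14 (0.0912). Between inhibitor-treated and MTAP-negative cells all 4 were lower, from -0.47 ± 0.14 (227085_at, adjusted p = 0.0325) to -1.01 ± 0.15 (212205_at, adjusted p = 0.00138). The call of 227085_at there was lost in 6 alternatives, with adjusted p up to 0.119.

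Set against 202487_s_at on the same array, 212205_at of H2AZ2 stood at -1.88, -1.87 and -1.91 with inhibitor, at -0.41, -0.35 and -0.67 in MTAP-positive cells and at -1.10, -1.36 and -1.68 in MTAP-negative cells (log2; a difference between probe sets whose brightness scales differ, so only its change between groups can be read). For 227085_at the same difference averaged -1.37 ± 0.11 with inhibitor, -1.41 ± 0.10 in MTAP-positive and -1.40 ± 0.10 in MTAP-negative cells (SD, n = 3). H2AZ2 has several annotated transcripts, and which of them each probe set detects was not analysed here.

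**Figure D2:**
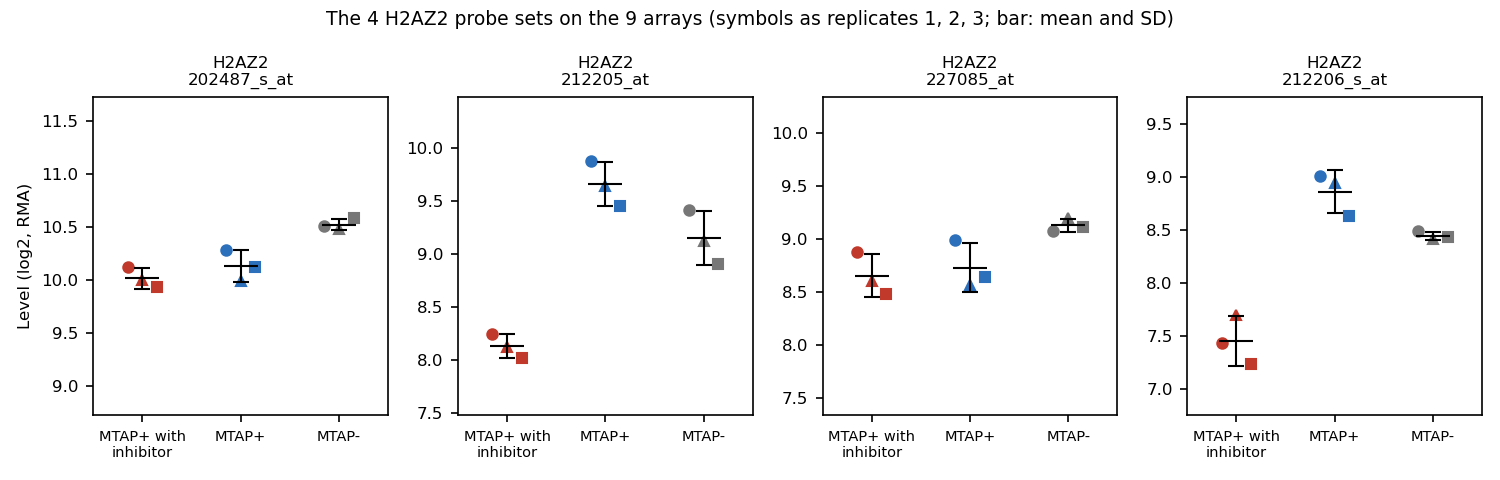
Levels (log2, RMA) of the 4 probe sets annotated to H2AZ2 on each array, with group means and SD as bars. In 212205_at and 212206_s_at the inhibitor-treated arrays lie below all others by 1.53 and 1.41 relative to the MTAP-positive mean, while in 202487_s_at and 227085_at they overlap the MTAP-positive arrays.

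In the fit by genes, where 202487_s_at stood for H2AZ2, the gene was lower by 0.39 in MTAP-positive than in MTAP-negative cells (-0.39 ± 0.10, adjusted p = 0.0280) and lower by 0.51 in inhibitor-treated than in MTAP-negative cells (-0.51 ± 0.10, adjusted p = 0.00399). Inhibitor-treated relative to MTAP-positive cells differed by -0.11 ± 0.10 (adjusted p = 0.506). The call between MTAP-positive and MTAP-negative cells did not hold in fits that left out replicate 1, 2 or 3 of the MTAP-negative cells (adjusted p = 0.0602, 0.0522 and 0.0866) or replicate 2 or 3 of the MTAP-positive cells (0.0541 and 0.0767). It was also lost when arrays of the third group were left out of the fit (0.0688) and when the ACTB difference was a covariate (0.170). With the mean of the 4 probe sets as the H2AZ2 level, the difference between MTAP-positive and MTAP-negative cells was 0.04 (adjusted p = 0.858) and that between inhibitor-treated and MTAP-positive cells was -0.78 (adjusted p = 0.00222).

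H1-10, the linker histone, was lowest in MTAP-negative cells. It read 10.56, 10.55 and 10.55 with inhibitor, 10.54, 10.53 and 10.34 in MTAP-positive cells, and 10.19, 9.87 and 9.06 in MTAP-negative cells (log2, probe set 204805_s_at, the only one). The MTAP-negative arrays lay below all others, with replicate 3 far below the other two. H1-10 was higher by 0.76 ± 0.23 in MTAP-positive than in MTAP-negative cells (1.70-fold, adjusted p = 0.0410) and by 0.85 ± 0.23 in inhibitor-treated than in MTAP-negative cells (1.80-fold, adjusted p = 0.0146). Between inhibitor-treated and MTAP-positive cells it differed by 0.09 ± 0.23 (adjusted p = 0.839).

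Among MTAP-negative arrays the ACTB 5' minus 3' difference was -1.81, -2.17 and -3.52 in replicates 1 to 3, in the order of the H1-10 levels. With this difference as a covariate the H1-10 difference to MTAP-negative cells was 0.34 ± 0.20 for MTAP-positive cells (adjusted p = 0.339) and 0.51 ± 0.19 for inhibitor-treated cells (0.0675). Without MTAP-negative replicate 3 the difference between MTAP-positive and MTAP-negative cells was 0.44 ± 0.13 (adjusted p = 0.0535). That call was lost in 12 of 20 alternatives, with adjusted p from 0.0128 to 0.339, among them every fit that left out 1 array other than MTAP-negative replicate 1.

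MACROH2A1 did not pass the test in any comparison through its brightest probe set. This probe set, 207168_s_at, read 11.79, 11.70 and 11.60 with inhibitor, 11.90, 11.81 and 11.74 in MTAP-positive cells, and 11.72, 11.75 and 11.78 in MTAP-negative cells, and the groups overlapped. The difference was -0.12 ± 0.09 with inhibitor (adjusted p = 0.413). Relative to MTAP-negative cells it was 0.07 ± 0.09 in MTAP-positive cells (0.639) and -0.05 ± 0.09 in inhibitor-treated cells (0.692).

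One of the other 4 MACROH2A1 probe sets, 214500_at, read 8.93, 9.02 and 9.13 with inhibitor, 9.19, 8.65 and 8.69 in MTAP-positive cells, and 8.47, 8.25 and 7.87 in MTAP-negative cells. MTAP-negative arrays lay below all others, and replicate 3 was again lowest. In the fit over all probe sets 214500_at of MACROH2A1 was higher by 0.83 ± 0.18 in inhibitor-treated than in MTAP-negative cells (adjusted p = 0.00856) and by 0.64 ± 0.18 in MTAP-positive than in MTAP-negative cells (0.0445). The call for MTAP-positive cells was lost in 11 of 15 alternatives, with adjusted p from 0.0308 to 0.289. The remaining 3 MACROH2A1 probe sets passed in no comparison.

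**Figure D3:**
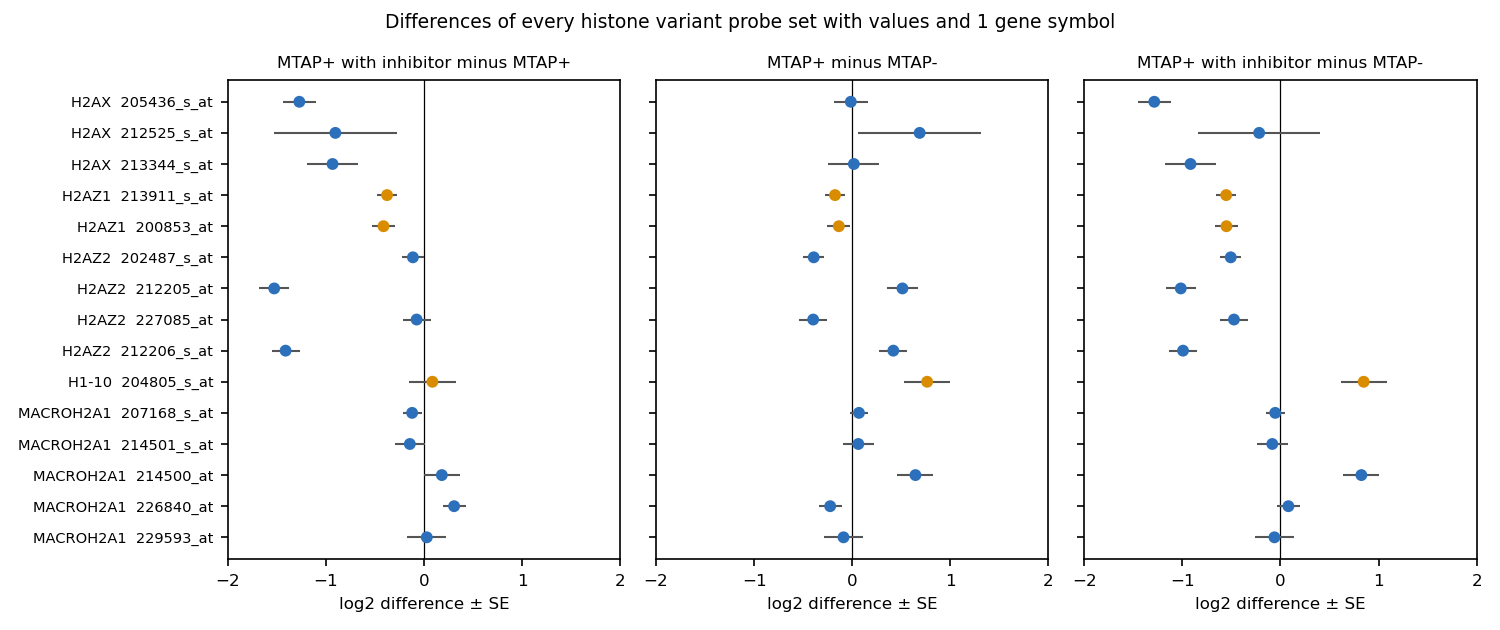
Differences (log2 ± SE, fit over all probe sets) of the 15 histone variant probe sets in the 3 comparisons, with genes in alternating colours. The 4 H2AZ2 probe sets split with inhibitor into -1.53 and -1.41 on one side and -0.11 and -0.08 on the other, and the 3 H2AX probe sets range from -1.27 to -0.90.

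The 8 probe sets annotated to both H3-3B and H3-3A passed in no comparison. In the 4 that also carry the microRNA gene MIR4738, all inhibitor-treated arrays lay below all MTAP-positive arrays, with differences from -0.53 to -0.25 and adjusted p from 0.0506 to 0.354. These 4 carry the same gene symbols and are not independent. Of the genes without MTAP, 36.4% had these groups apart in either direction. In the 4 that also carry the pseudogene H3P6 the groups overlapped, with differences from -0.14 to 0.00 and adjusted p from 0.617 to 0.989. The members other than H2AX that were tested by gene numbered 4. With inhibitor 1 of the 4 was called, H2AZ1, where 14.9% of 7010 genes without MTAP were called (1042 of them, and 1589 with the replicate number as a block, under which the members' count stayed at 1). Between MTAP-positive and MTAP-negative cells 2 of the 4 were called beside 19.1% of all genes, a count that was 0 or 1 in every fit that left out 1 array. For inhibitor-treated against MTAP-negative cells 3 of the 4 were called beside 37.3%. The median difference of these 4 genes was -0.12, -0.05 and -0.28 in the same order of comparisons, beside -0.02, 0.01 and -0.00 over all genes tested. Comparisons that share a group share its arrays.

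Other genes of histone supply were counted in lists. Of 25 histone variant genes 7 were tested, and those that are no members were CENPA and H2AJ. CENPA, which marks centromeres, read 7.69 ± 0.26 with inhibitor and 8.32 ± 0.13 in MTAP-positive cells (log2, SD, n = 3). CENPA fell by 0.63 ± 0.13 on the log2 scale (adjusted p = 0.0121), a call that was lost without inhibitor-treated replicate 3 (adjusted p = 0.0551). H2AJ differed by 0.07 ± 0.12 with inhibitor (adjusted p = 0.727).

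Few of the replication-coupled histone genes could be measured. Of 67 such genes 7 had a probe set of their own with values and 5 were tested, and of these 3 were called higher and 0 lower with inhibitor, beside 6.36% higher and 8.50% lower of all genes. H2BC12 read 11.83, 11.74 and 11.66 with inhibitor, 11.35, 11.18 and 11.47 in MTAP-positive cells, and 11.91, 11.98 and 12.10 in MTAP-negative cells. H2BC12 was thus higher by 0.41 ± 0.11 with inhibitor (adjusted p = 0.0282), and lower by 0.67 in MTAP-positive than in MTAP-negative cells (-0.67 ± 0.11, adjusted p = 0.00246). H2BC5 read 9.66, 9.50 and 9.34 with inhibitor and 8.81, 8.59 and 9.19 in MTAP-positive cells, a difference of 0.64 ± 0.15 (adjusted p = 0.0193). H2AC6 read 8.96, 8.96 and 8.97 with inhibitor and 8.46, 8.17 and 8.77 in MTAP-positive cells, a difference of 0.50 ± 0.14 (adjusted p = 0.0439), a call that was lost in 11 of 20 alternatives, with adjusted p up to 0.136. MTAP-positive replicate 2 was the lowest array of its group in all 5 genes, which also include H2BC12L (0.49 ± 0.18, adjusted p = 0.0953) and H1-2 (0.35 ± 0.22, adjusted p = 0.319). The count of 3 became 0 without MTAP-positive replicate 1 or without inhibitor-treated replicate 1 or 2, and 1 without MTAP-positive replicate 2 or inhibitor-treated replicate 3. These genes have near-identical copies that their probes may also bind, and the median difference of the 5 was 0.49. Whether the values of these genes and of H2AX stand for RNA with a stem-loop, with a poly(A) tail or both was not analysed here.

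The chaperones that carry H3 and H4 to DNA were lower with inhibitor in 7 of 19 tested genes and higher in 0, beside 8.50% lower and 6.36% higher of all genes. Their median difference was -0.22, beside -0.02 over all genes. ASF1B, which hands new H3 and H4 to assembly factors, read 8.31 ± 0.24 with inhibitor and 9.27 ± 0.21 in MTAP-positive cells (1.94-fold lower, adjusted p = 0.00341). The assembly factor subunits CHAF1B and CHAF1A fell by 0.61 ± 0.09 (adjusted p = 0.00309) and by 0.54 ± 0.13 (0.0222), and OIP5, which helps to place CENPA, fell by 0.88 ± 0.15 (0.00473). RBBP7 and MCM2 differed by -0.15 ± 0.08 and -0.13 ± 0.17 and did not pass. The count of 7 became 3 without inhibitor-treated replicate 3 and 4 without inhibitor-treated replicate 2 or MTAP-positive replicate 1. The 21 tested chaperones and remodellers of H2A and H2B, with the same shares over all genes, had 0 lower and 1 higher, INO80C, a subunit of the INO80 remodeller (0.50 ± 0.09, adjusted p = 0.00660). In MTAP-positive relative to MTAP-negative cells limma called 0 of these 19 genes (1 higher and 2 lower at an unadjusted p under 0.05) and 0 of these 21 (2 higher and 3 lower). Of all genes 11.7% were called higher and 7.36% lower there. Other settings called up to 3 of the 19, all lower, and up to 1 of the 21 in either direction.

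Of 13 tested genes that process histone mRNA limma called 0 with inhibitor, against 1 higher and 1 lower at an unadjusted p under 0.05, and other settings called up to 1 each way. The median difference of the 13 was -0.07, and of all genes 8.50% were called lower and 6.36% higher. Of 27 tested genes that phosphorylate H2AX or act on its phosphorylated form, 4 were lower with inhibitor and 0 higher, beside 8.50% lower and 6.36% higher of all genes. They were the checkpoint kinase CHEK1 (-0.60 ± 0.12, adjusted p = 0.00853), the phosphatase subunit PPP2CA (-0.42 ± 0.09, 0.0151), PAXIP1 (-0.36 ± 0.10, 0.0390) and BRCA1 (-0.43 ± 0.13, 0.0474), and this count ran from 1 to 8 over the alternatives. BRCA1 did not pass in 15 of 18 alternatives and PAXIP1 in 11 of 20. The kinase PRKDC differed by 0.09 ± 0.15 (adjusted p = 0.733).

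S-phase genes were lower with inhibitor in 12 of 23 tested genes and higher in 0, beside 8.50% lower and 6.36% higher of all genes, and their median difference was -0.42. RRM2, a subunit of ribonucleotide reductase, read 10.76 ± 0.33 with inhibitor and 11.78 ± 0.24 in MTAP-positive cells (2.03-fold lower, adjusted p = 0.00507). The replication licensing gene CDC6 and the maintenance methylation factor UHRF1 fell by 1.0 ± 0.17 and by 0.92 ± 0.14 on the log2 scale. The cyclin CCNE2 averaged 6.48 with inhibitor, below the level of 6.64 that deposited probe sets reached on at least 3 arrays. The size of its fall is therefore less certain. With 6.64 in place of the inhibitor-treated mean, CCNE2 was 2.33-fold lower than in MTAP-positive cells. Without that replacement its difference ran from -1.55 to -1.16 (log2) over the alternatives. RRM1 and MCM2 differed by -0.08 ± 0.10 and -0.13 ± 0.17 and did not pass. The count of S-phase genes ran from 8 to 14 over the alternatives. The 12 S-phase genes called were lower in the comparison in which H2AX was lower, and the part of S-phase stage in the H2AX level was not tested.

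For the directions with a count of 0 with inhibitor in limma, an unadjusted p under 0.05 gave 0 lower replication-coupled histone genes, 0 higher H3 and H4 chaperones, 2 lower H2A and H2B chaperones and remodellers, 2 higher genes of H2AX phosphorylation and 0 higher S-phase genes.

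Relative to MTAP-negative cells, 1351 of 7010 genes (19.3%) were called higher and 1262 of 7010 lower in inhibitor-treated cells, and 11.7% were higher and 7.36% lower in MTAP-positive cells. Of 23 S-phase genes 17 were lower in inhibitor-treated cells (12 to 17 over the alternatives) and 6 in MTAP-positive cells (3 to 10, with 3 without MTAP-negative replicate 2 or 3), with medians of -0.82 and -0.28. CCNE1, which is in both counts, exceeded the level required for testing only on the MTAP-negative arrays. POLE2 and CCNE2, also in both counts, exceeded it on these arrays and otherwise only on MTAP-positive replicate 2. The S-phase genes CDC45 and POLA1 likewise exceeded it on fewer than the 3 arrays required outside the MTAP-negative cells. The entry of these genes into the test thus depended on the group in which they were high, which favours a lower value in the others.

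Of the 27 genes that phosphorylate H2AX or act on its phosphorylated form, 10 were lower and 2 higher in inhibitor-treated relative to MTAP-negative cells. Of all 7010 genes, 1262 were lower and 1351 higher in that comparison. The count of 10 ran from 4 to 13 over the alternatives and fell to 4 without inhibitor-treated replicate 3, to 5 without MTAP-negative replicate 1 or 2, and to 6 without MTAP-negative replicate 3, MTAP-positive replicate 3 or inhibitor-treated replicate 1. The count of 2 ran from 0 to 3. The kinase ATM was among the higher genes (0.86 ± 0.23, 1.82-fold, adjusted p = 0.0144), with adjusted p up to 0.0616 over the alternatives. BRCC3, a deubiquitinase, was among the lower genes (-0.82 ± 0.12, adjusted p = 7.75e-04). In MTAP-positive relative to MTAP-negative cells 2 of the 27 were lower (0 to 4 over the alternatives) and 1 was higher (0 to 2). Of all genes 7.36% were lower and 11.7% higher there. RAD50, a subunit of the complex that senses DNA breaks, was lower by 0.90 in MTAP-positive than in MTAP-negative cells (-0.90 ± 0.17, adjusted p = 0.00628). RAD50 exceeded the level required for testing only on the MTAP-negative arrays. Its entry into the test thus depended on the group in which it was high, which favours a difference of this sign. The same limit applies to RAD50 among the lower genes in inhibitor-treated relative to MTAP-negative cells. It also applies to BRCC3 in both comparisons. BRCC3 exceeded that level on the MTAP-negative arrays and otherwise only on MTAP-positive replicates 2 and 3.

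Of the 19 H3 and H4 chaperones 7 were lower (4 to 8 over the alternatives) and 1 higher (0 to 2) in inhibitor-treated relative to MTAP-negative cells. HAT1, which acetylates new H4, was among the lower ones (-0.84 ± 0.15, adjusted p = 0.00208). Of the 21 chaperones and remodellers of H2A and H2B, 2 were lower (1 to 5) and 2 higher (1 to 2), beside the same shares of all genes. ANP32E, a chaperone that removes H2A.Z, was lower by 0.89 in inhibitor-treated than in MTAP-negative cells (-0.89 ± 0.16, adjusted p = 0.00188). With inhibitor relative to MTAP-positive cells its difference was -0.48 ± 0.16 (adjusted p = 0.0691). Of the 13 genes that process histone mRNA, 4 were lower in inhibitor-treated cells (2 to 6 over the alternatives) and 2 in MTAP-positive cells (0 to 6), each relative to MTAP-negative cells. Of all 7010 genes, 1262 were lower in inhibitor-treated cells and 516 (7.36%) in MTAP-positive cells in these comparisons. The count of 2 fell to 0 without MTAP-negative replicate 2 or 3 and to 1 without MTAP-negative replicate 1 or any inhibitor-treated array. The count of 4 fell to 2 without MTAP-negative replicate 1 or 3 or inhibitor-treated replicate 2 or 3.

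**Figure D4:**
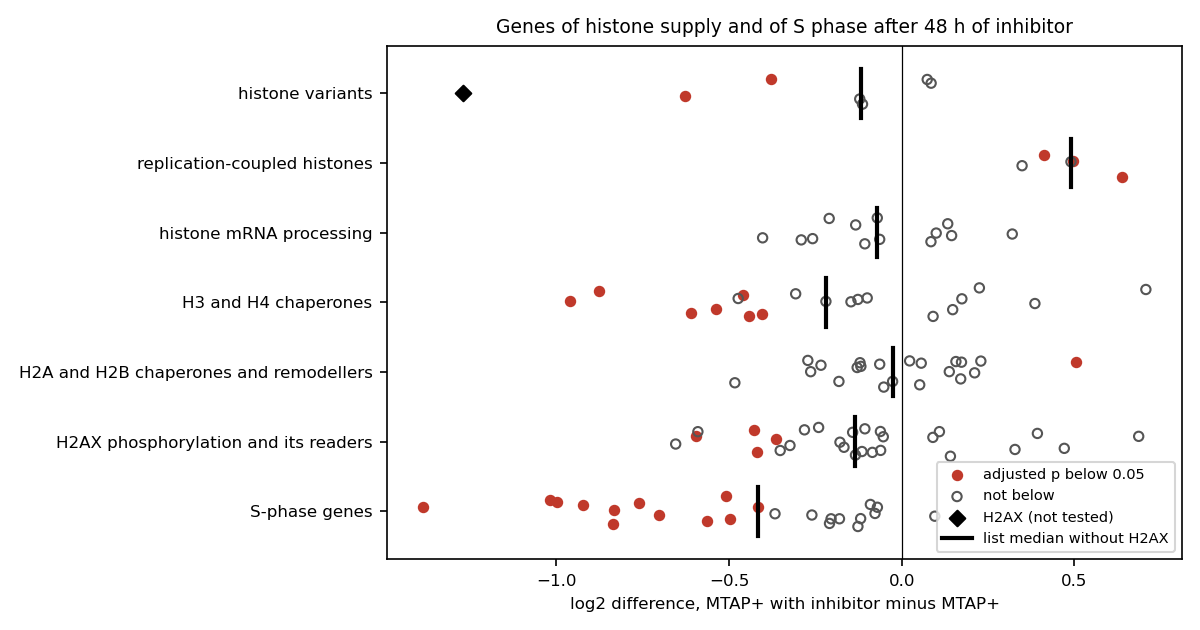
Differences (log2) between inhibitor-treated and MTAP-positive cells for each tested gene of 7 lists, 1 point a gene, with genes of adjusted p below 0.05 filled in red and the list median as a bar. H2AX (black diamond, -1.27) lies left of every other gene shown except CCNE2, and all 5 replication-coupled histone genes lie right of 0.

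Over the 9 arrays the levels most like those of H2AX were those of TUBB2A (Pearson r = 0.987), CIRBP (0.985), SHCBP1 (0.976), TTF2 (0.976), ABHD11 (0.976), TIMELESS (0.973), PIK3R4 (0.972) and INTS5 (0.970), among all tested genes but the members and MTAP. The points fall into 1 low group, the inhibitor-treated arrays, and 2 groups at a like higher level, so these values describe mainly that step. After subtracting group means the correlations with H2AX were 0.657 (PIK3R4) to 0.872 (INTS5). The genes were picked on the same arrays by a correlation that includes these deviations. High values follow in part from that choice, and no range over all genes is given. TUBB2A, a tubulin gene, read 10.63 ± 0.17 with inhibitor, 11.51 ± 0.19 in MTAP-positive cells and 11.52 ± 0.11 in MTAP-negative cells, as log2 mean ± SD of 3 arrays. CIRBP, a cold-inducible RNA-binding protein gene, read 9.52 ± 0.14, 10.45 ± 0.14 and 10.46 ± 0.14 in the same order of groups.

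**Figure D5:**
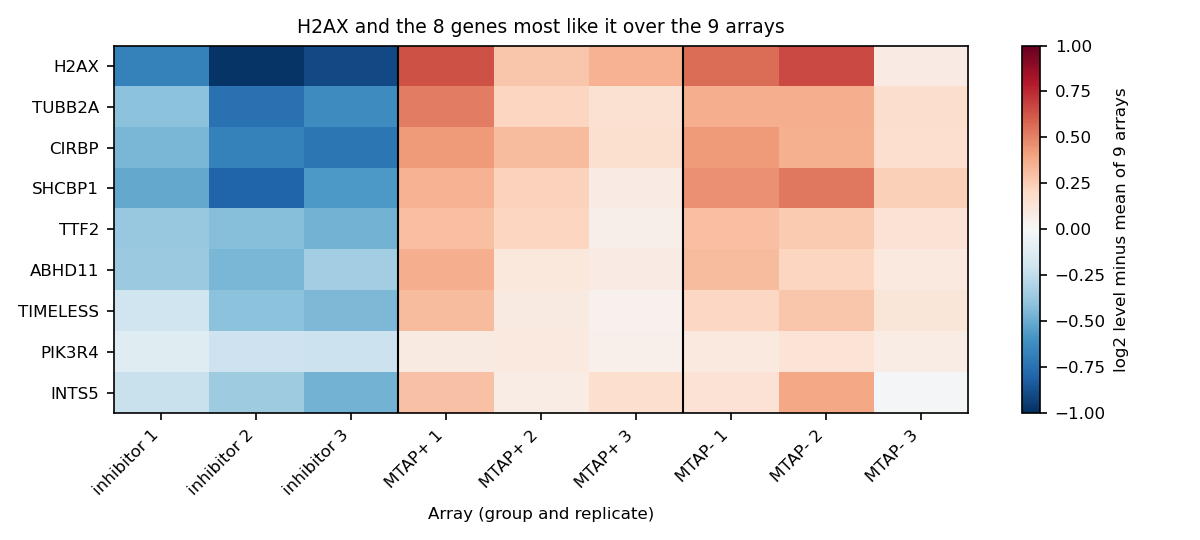
Levels of H2AX and of the 8 genes with the highest Pearson correlation to it, as log2 level minus the gene's mean over the 9 arrays, with arrays in columns. The 3 inhibitor-treated arrays are low in every row (blue) and the 6 others are higher.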

How the data were processed

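Expression was measured on 9 Affymetrix arrays. RMA gave the deposited log2 values, per the submitters' processing notes, and no source used here gives its version or settings. Of 54675 probe sets 17474 held values on all arrays, and each of these reached at least 6.64 on at least 3 arrays. Probe sets were named through the platform annotation: 15485 carried 1 symbol, 841 several and 1140 none, besides 8 controls. Each gene was represented by its probe set of highest mean and tested if it exceeded 7.96, the 40th percentile, on at least 3 arrays, leaving 7011 genes. A group-means model was fitted to all 9 arrays with limma 3.58.1 in R 4.3.3, followed by eBayes and Benjamini-Hochberg adjustment within each comparison, with 0.05 as the threshold. The code was tested on simulated data. The number of arrays limits the precision, with a median SE of 0.126 (log2).

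The members and gene lists were chosen with earlier results of these data known, so no p adjusted over a list alone is given. Genes named are all members, up to 4 called and 2 uncalled genes per list with the largest change or highest level, and the 8 genes most correlated with H2AX. Arrays are numbered in their titles, and the labels do not say what a number shares. Deviations of same-numbered arrays from their group means correlated by 0.353 to 0.767 between inhibitor-treated and MTAP-positive cells and by 0.152 to 0.381 between MTAP-positive and MTAP-negative cells, so the numbers were taken to pair these arrays. Between inhibitor-treated and MTAP-negative cells the values were 0.0243 to 0.315. The main fit did not use this pairing, and the replicate block was run only as an alternative. Alternatives varied scaling, filter, probe set choice, weights, covariate, block, variance prior and arrays left out. Raw intensities and detection calls were not used here.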

Additional observations from a re-analysis of the deposited data

How the results depend on the processing

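Over 20 alternatives, H2AX stayed lower with inhibitor, by 1.04 to 1.36 (log2) against MTAP-positive cells. This difference chose the gene, so the range describes the processing only. All 3 H2AX probe sets with values are named for several transcripts, so H2AX had no value in the setting without such probe sets. Of the 4 other members tested, 1 was called with inhibitor, but 0 with only both groups fitted, 2 with the mean of the probe sets or without probe sets named for several transcripts, and 0 to 1 when 1 array was left out. Between MTAP-positive and MTAP-negative cells 2 were called, but 0 with only both groups fitted or with the ACTB covariate, 1 with array weights, with the mean of the probe sets or in the fit over all probe sets, and 0 to 1 when 1 array was left out. Between inhibitor-treated and MTAP-negative cells the count was 3 in each fit that left out 1 array, and 2 with the ACTB covariate. Of all genes, the 1042 called with inhibitor became 1589 with the replicate block, 1832 with array weights, 689 without probe sets named for several transcripts and 372 (without inhibitor-treated replicate 3) to 1055 when 1 array was left out. The 1336 called between MTAP-positive and MTAP-negative cells became 752 with only both groups fitted, 2164 with array weights, 470 with the ACTB covariate, 880 without probe sets named for several transcripts, and 745 to 1583 when 1 array was left out. The 2613 called between inhibitor-treated and MTAP-negative cells became 1726 without such probe sets and 1844 to 2959 when 1 array was left out. Of the genes called for MTAP-positive against MTAP-negative cells, 61.4% were higher, but 43.2% with arrays centred on their medians and 47.9% after a renewed quantile normalisation. The sign turned for H2AZ2 between MTAP-positive and MTAP-negative cells with the mean of its probe sets (0.035) and without probe sets named for several transcripts (0.51), where 212205_at stands for the gene. Without such probe sets it also turned for MACROH2A1 between inhibitor-treated and MTAP-negative cells (0.83, where 214500_at stands for the gene) and for SNRPE between MTAP-positive and MTAP-negative cells (0.0010); the cause was not tested. The replicate block changed no call of a member tested by gene.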
